A study of Mus musculus with 16 samples.

Results

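E proteins and the Id proteins that restrain them were followed from the DN3 to the ISP8 stage of thymocyte development, with and without PKBα. The 6 genes were taken by symbol: Id1, Id2 and Id3 for the inhibitors, and Tcf3 (E2A), Tcf4 (E2-2) and Tcf12 (HEB) for the E proteins. All probe sets annotated to 1 of these symbols were used, 19 of the 45101 on the array, and the 6 genes are among 18194 with a probe set of their own. Tcf3 and Tcf4 are also older names of genes of the Wnt pathway, and the gene identifiers of the annotation showed that the probe sets used here belong to E2A and E2-2.

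Thymocytes were sorted from 8 C57Bl/6-backcrossed mice in 4 littermate pairs, each of a PKBα-/- mouse, which lacks the kinase in the whole body, and a PKBα+/+ mouse. Pair 1 was female and 3 weeks old, pair 2 male and 3 weeks old, pair 3 male and 2 weeks old, and pair 4 female and 5 weeks old. Each mouse gave 1 array of ISP8 cells (CD8+, CD4-, CD3-) and 1 array of DN3 cells (CD25+, CD44-, lineage-negative), so the 4 groups, ISP8 PKBα-/-, ISP8 PKBα+/+, DN3 PKBα-/- and DN3 PKBα+/+, held 4 arrays each, 16 in all. PKBα, the product of Akt1, is a serine/threonine kinase downstream of PI3K, DN3 cells are the precursors in which the pre-TCR is tested, and ISP8 cells come after them and before the double positive stage.

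E proteins are basic helix-loop-helix factors that pair with each other and bind the E box, CANNTG, in enhancers and promoters of lymphocyte genes. Id proteins have the helix-loop-helix part but no DNA-binding part, so a dimer of an E protein with an Id protein does not bind DNA. In early thymocytes dimers of E2A and HEB are known to drive genes of the pre-TCR and of recombination and to hold back proliferation, and signals of the pre-TCR are known to induce Id3.

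The labels were checked first. Akt1 was measured at 4.87 to 6.81 in ISP8 PKBα-/- cells, against 1628 to 2211 in ISP8 PKBα+/+ cells, and at 2.01 to 27.3 in DN3 PKBα-/- cells, against 1198 to 2007 in DN3 PKBα+/+ cells, on the linear GC-RMA scale that all values below share. Il2ra, which encodes the CD25 used for the sort, lay at 84.8 to 460.1 in ISP8 cells, against 6899 to 10971 in DN3 cells. Cd8a lay at 5248 to 6356 in ISP8 cells, against 16.4 to 318 in DN3 cells, and Cd8b1 at 1738 to 3325, against 115 to 308.5. Array medians ran from 55.1 to 60.4 in ISP8 cells and from 58.5 to 70.5 in DN3 cells. ISP8 arrays carry the numbers 1 to 8 and DN3 arrays the numbers 9 to 16 in the labels, so the order of the arrays and the stage cannot be told apart. The log2 ratio of the 3′ to the 5′ actin control probe set was lower in ISP8 than in DN3 cells in 7 of 8 mice. Its mean difference was -0.44 ± 0.37 (SD). For Gapdh the same ratio was higher in ISP8 cells in 4 of 8 mice, with a mean difference of 0.025 ± 0.47 (SD). The part of these ratios in the results was not tested.

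From DN3 to ISP8, transcripts of Id3 and Id2 went in opposite directions, and Id1 had no change that passed. Among the E protein genes Tcf4 changed most by its brightest probe set. Id3 rose 1.87-fold, while Id2 fell 4.76-fold by its brightest probe set and Tcf4 fell 2.62-fold. Tcf3 and Tcf12, the genes of E2A and HEB, moved less than 1.5-fold by their brightest probe sets. Of the 19 probe sets, all of which were tested, 12 passed at an adjusted p of 0.05 (limma, Benjamini-Hochberg over all probe sets tested), 3 higher and 9 lower in ISP8 cells. Among all 32831 probe sets tested, 42.2% passed, 17.5% higher and 24.7% lower. The median change of the 19 was -0.12 on the log2 scale, against -0.067 over all probe sets tested. Every ISP8 array lay above every DN3 array for Id3, as for 6.52% of all probe sets, and every ISP8 array lay below every DN3 array for 6 probe sets, 1 of Id2 and 5 of Tcf4, as for 9.92%.

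**Figure D1:**
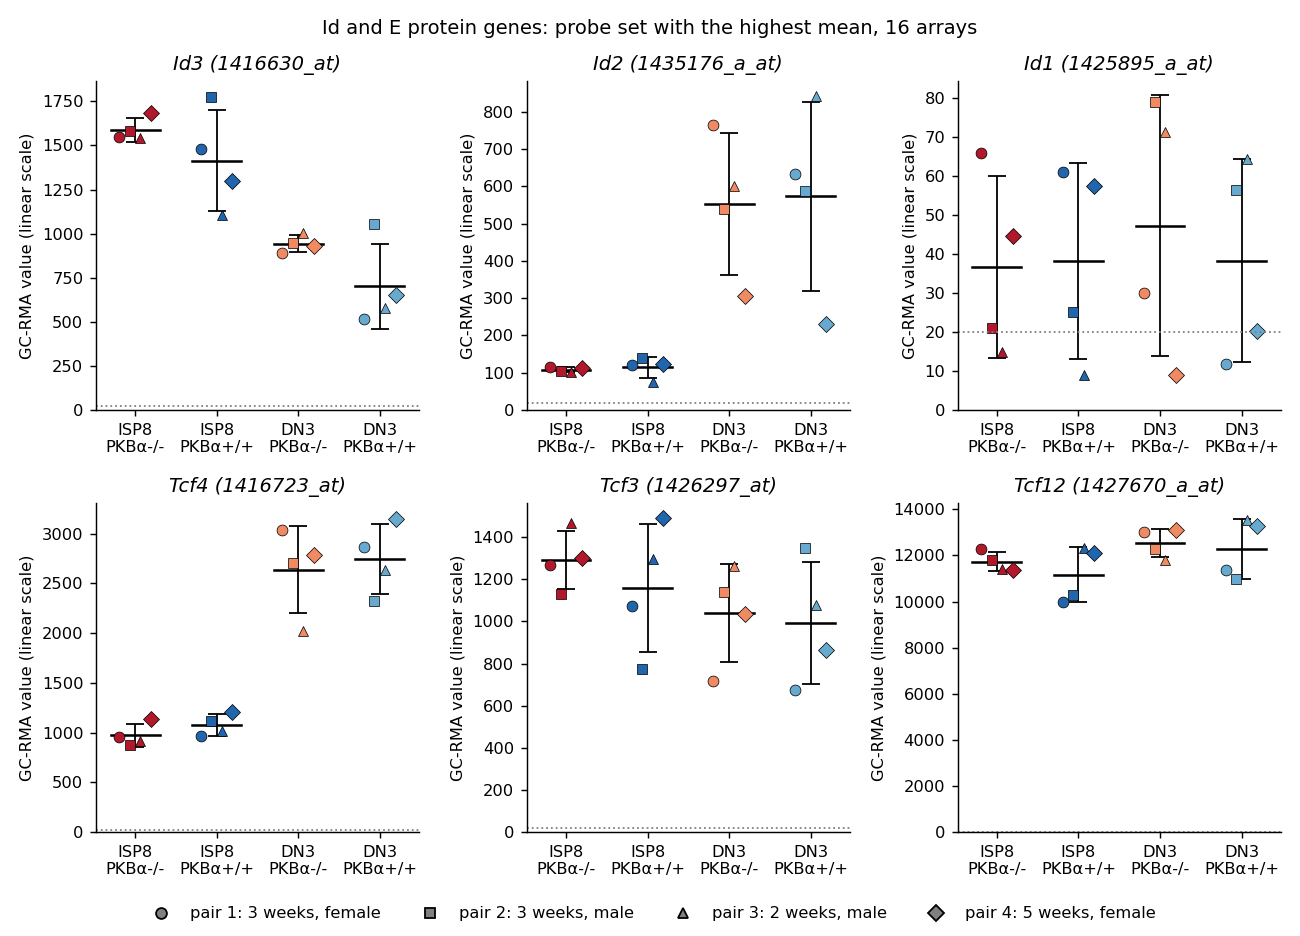
GC-RMA value (linear scale, from 0) of the probe set with the highest mean for each of the 6 genes on the 16 arrays, by group (x axis). Points are arrays with a shape per littermate pair, horizontal lines are means, error bars are the SD (n = 4) and the dotted line marks the filter value of 20; Id3 is higher and Id2 and Tcf4 are lower on every ISP8 array than on every DN3 array, and Id1 has 1 array of each group below the dotted line.

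Id3 and Id2, the inhibitors that went in opposite directions, lie on chromosome 4 (chr4:136143822-136145392) and chromosome 12 (chr12:25093799-25096092) of the mouse genome (GRCm38.p6). The 250 bases before their annotated start sites (RefSeq, GRCm38.p6) are shown because the E box is the sequence that E proteins bind, with CANNTG and TATAA in capitals. The first is chr4:136143572-136143821 on the plus strand and the second chr12:25096093-25096342 on the minus strand.
Id3: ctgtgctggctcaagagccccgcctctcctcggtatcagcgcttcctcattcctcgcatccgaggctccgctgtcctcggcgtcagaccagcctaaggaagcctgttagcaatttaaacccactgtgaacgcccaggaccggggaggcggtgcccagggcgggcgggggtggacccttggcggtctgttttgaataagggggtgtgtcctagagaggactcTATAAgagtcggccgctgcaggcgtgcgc
Id2: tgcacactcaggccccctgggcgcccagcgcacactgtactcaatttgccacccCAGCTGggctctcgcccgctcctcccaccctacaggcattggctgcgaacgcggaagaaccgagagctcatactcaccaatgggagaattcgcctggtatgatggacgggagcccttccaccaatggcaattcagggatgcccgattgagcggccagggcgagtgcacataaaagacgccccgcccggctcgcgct
Both windows have a GC content of 62.8%. The Id2 window holds 1 E box, CAGCTG at position -196 from the start, and no TATAA, and the Id3 window holds no CANNTG and 1 TATAA. Over 32851 promoter windows of the same length, on both strands, 66.2% hold CANNTG, 13% hold CAGCTG (a form of CANNTG) and 22.8% hold TATAA. The EGR-type motifs GCGTGGGCG, found in 0.536% of windows, and GCGGGGGCG, found in 2.57%, do not occur in either. A match describes the letters of the window and says nothing about binding in these cells.

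Id3, the inhibitor induced by the pre-TCR and the TCR, is measured by 1 probe set (1416630_at). Its values were 1546, 1582, 1541 and 1685 in ISP8 PKBα-/- cells of pairs 1 to 4 and 1479, 1777, 1104 and 1299 in ISP8 PKBα+/+ cells. In DN3 cells they were 891, 947, 1006 and 931 in PKBα-/- mice and 516, 1055, 578 and 654 in PKBα+/+ mice. The ISP8 values lay above the DN3 values without overlap, and the PKBα+/+ groups spread more widely than the PKBα-/- groups in both subsets. The rise was 0.90 on the log2 scale (SE 0.091, adjusted p = 7.95e-07 by limma) and was seen in 8 of 8 mice, with single mice between 0.62 and 1.52. It was 0.75 (SE 0.11) in PKBα-/- mice and 1.05 (SE 0.15) in PKBα+/+ mice. A larger rise was found for 8.37% of the probe sets tested.

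Id2, the inhibitor known for its need in NK cells and other innate lymphoid cells, has 3 probe sets. The brightest (1435176_a_at) gave 115, 105, 102 and 112 in ISP8 PKBα-/- cells and 122, 138, 73.8 and 123 in ISP8 PKBα+/+ cells of pairs 1 to 4. In DN3 cells it gave 765, 539.8, 602 and 306 in PKBα-/- mice and 634, 587, 841 and 231 in PKBα+/+ mice. The ISP8 values were low and close together, and in DN3 cells the lowest value of each genotype was that of pair 4, the 5-week-old females. The change was -2.25 on the log2 scale (SE 0.23, adjusted p = 7.60e-07 by limma), lower in 8 of 8 mice, and it ranged from -3.51 to -0.91 over the mice, with both pair 4 mice changing least within their genotype. It was -2.28 (SE 0.23) in PKBα-/- mice and -2.22 (SE 0.32) in PKBα+/+ mice, and a larger fall was found for 2.11% of probe sets.

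Both other Id2 probe sets were dim. The first (1422537_a_at) lay at 3.32 to 48.0 in ISP8 cells, against 4.78 to 89.7 in DN3 cells, and its change was -1.58 (SE 0.50, adjusted p = 0.0190 by limma), lower in 8 of 8 mice. That call was lost without the pairing (adjusted p = 0.0573), without pair 1 (adjusted p = 0.110) and without pair 3 (adjusted p = 0.170). The second (1453596_at) lay at 1.01 to 39.9 in ISP8 cells, against 17.62 to 55.003 in DN3 cells, and its change of -1.29 (SE 0.58) did not pass (adjusted p = 0.0918 by limma). All 3 probe sets of the gene thus had lower means in ISP8 cells, and 2 of them passed.

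Id1, the inhibitor known as a target of BMP signalling, had low values that varied widely within each group, and 1 array of each group was below the filter value of 20. Its probe set (1425895_a_at; chr2:152736251-152737410, GRCm38.p6) gave 65.9, 21.0, 14.8 and 44.5 in ISP8 PKBα-/- cells and 61.0, 25.2, 9.09 and 57.5 in ISP8 PKBα+/+ cells, against 30.0, 79.0, 71.2 and 8.86 in DN3 PKBα-/- cells and 11.9, 56.5, 64.4 and 20.2 in DN3 PKBα+/+ cells. The groups overlapped fully, and the stage change was -0.10 with a 95% confidence interval from -1.43 to 1.22 (adjusted p = 0.915 by limma). The sign of that change differed between pairs, and 4 of 8 mice were higher in ISP8 cells.

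Tcf4, the gene of E2-2, which is known for its need in plasmacytoid dendritic cells, fell in ISP8 cells by 5 of its 6 probe sets. The brightest (1416723_at) gave 951, 877, 914 and 1141 in ISP8 PKBα-/- cells and 965, 1112, 1018 and 1211 in ISP8 PKBα+/+ cells. In DN3 cells it gave 3040, 2705, 2021 and 2787 in PKBα-/- mice and 2864, 2320, 2635 and 3152 in PKBα+/+ mice. The subsets did not overlap, and the genotypes overlapped within each subset. Its change was -1.39 on the log2 scale (SE 0.083, adjusted p = 2.35e-09 by limma), lower in 8 of 8 mice and between -1.68 and -1.06 in each of them.

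The other 4 Tcf4 probe sets that passed fell less than this one. Their changes were -1.03 (SE 0.082) for 1416724_x_at, -1.16 (SE 0.10) for 1424089_a_at, -1.21 (SE 0.12) for 1434148_at and -1.06 (SE 0.14) for 1434149_at, each in 8 of 8 mice. An _x_at probe set may also bind other transcripts. The sixth (1416725_at) lay at 21.4 to 46.7 in ISP8 cells, against 4.66 to 50.1 in DN3 cells, near the filter value, and did not pass (0.24, SE 0.43, adjusted p = 0.707 by limma). In bulk arrays fewer cells with a transcript and less transcript per cell cannot be told apart, here and for Id2. All 5 also passed within PKBα-/- mice and within PKBα+/+ mice.

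Tcf3, the gene of E2A (chr10:80409541-80433976, GRCm38.p6), has 3 probe sets. The brightest (1426297_at) gave 1266, 1130, 1469 and 1300 in ISP8 PKBα-/- cells and 1074, 776, 1295 and 1489 in ISP8 PKBα+/+ cells, against 719, 1138, 1264 and 1035 in DN3 PKBα-/- cells and 675, 1347, 1080 and 865 in DN3 PKBα+/+ cells. The values overlapped between subsets, with pair 2 alone lower in ISP8 than in DN3 cells in both genotypes. The change was 0.28 (SE 0.15, 95% confidence interval -0.025 to 0.59, adjusted p = 0.134 by limma), higher in 6 of 8 mice. Without pair 2 it was 0.51 and passed (adjusted p = 0.00189), and it also passed after quantile normalization (0.38, adjusted p = 0.0477).

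The second Tcf3 probe set (1427764_a_at) had a median of 204 in ISP8 cells (127 to 391), against 143 in DN3 cells (95.2 to 256). Its change of 0.52 (SE 0.18, adjusted p = 0.0319 by limma) was seen in 7 of 8 mice, and the call was lost without pair 1, 3 or 4 (adjusted p = 0.0514, 0.119 and 0.179). It was also lost by the methods' paired test after Benjamini-Hochberg (adjusted p = 0.0630). The third (1452542_x_at) lay at 19.4 to 87.3 in ISP8 cells, against 4.35 to 138 in DN3 cells, with a change of 0.99 (SE 0.52) that did not pass (adjusted p = 0.145). All 3 fitted changes of Tcf3 were above 0, and 1 of them passed.

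Tcf12, the gene of HEB (chr9:71844252-72111893, GRCm38.p6), was far above the filter value of 20 in all groups and had a change that differed between its 5 probe sets. The brightest (1427670_a_at) gave 12282, 11796, 11424 and 11384 in ISP8 PKBα-/- cells and 9976, 10294, 12304 and 12086 in ISP8 PKBα+/+ cells, against 13020, 12279, 11817 and 13098 in DN3 PKBα-/- cells and 11376, 10973, 13533 and 13285 in DN3 PKBα+/+ cells. The ranges overlapped, but within each of the 8 mice the ISP8 value was the lower. The change was -0.12 (SE 0.042, adjusted p = 0.0316 by limma), a difference of 1.09-fold. Leaving out any 1 pair ended this call (adjusted p between 0.0551 and 0.111), and quantile normalization gave -0.27 (adjusted p = 6.42e-05).

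Probe sets of Tcf12 went both ways. The probe set 1439619_at gave 229.5, 218, 281 and 228 in ISP8 PKBα-/- cells and 215, 277, 263 and 308 in ISP8 PKBα+/+ cells, against 511, 259.6, 519.6 and 516 in DN3 PKBα-/- cells and 443, 231, 479 and 541 in DN3 PKBα+/+ cells. The DN3 arrays of both pair 2 mice lay within the range of the ISP8 arrays and the other 6 lay above it. The change was -0.74 (SE 0.16, adjusted p = 0.00122 by limma), lower in 7 of 8 mice. The probe set 1446294_at rose, with a median of 362 in ISP8 cells (283 to 397), against 238 in DN3 cells (164 to 327), by 0.49 (SE 0.13, adjusted p = 0.00630) in 8 of 8 mice. The remaining ones, 1421908_a_at (0.15, SE 0.071, adjusted p = 0.115) and 1439209_at (-0.044, SE 0.095, adjusted p = 0.754), did not pass. Which transcripts of the gene each probe set measures was not examined.

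**Figure D2:**
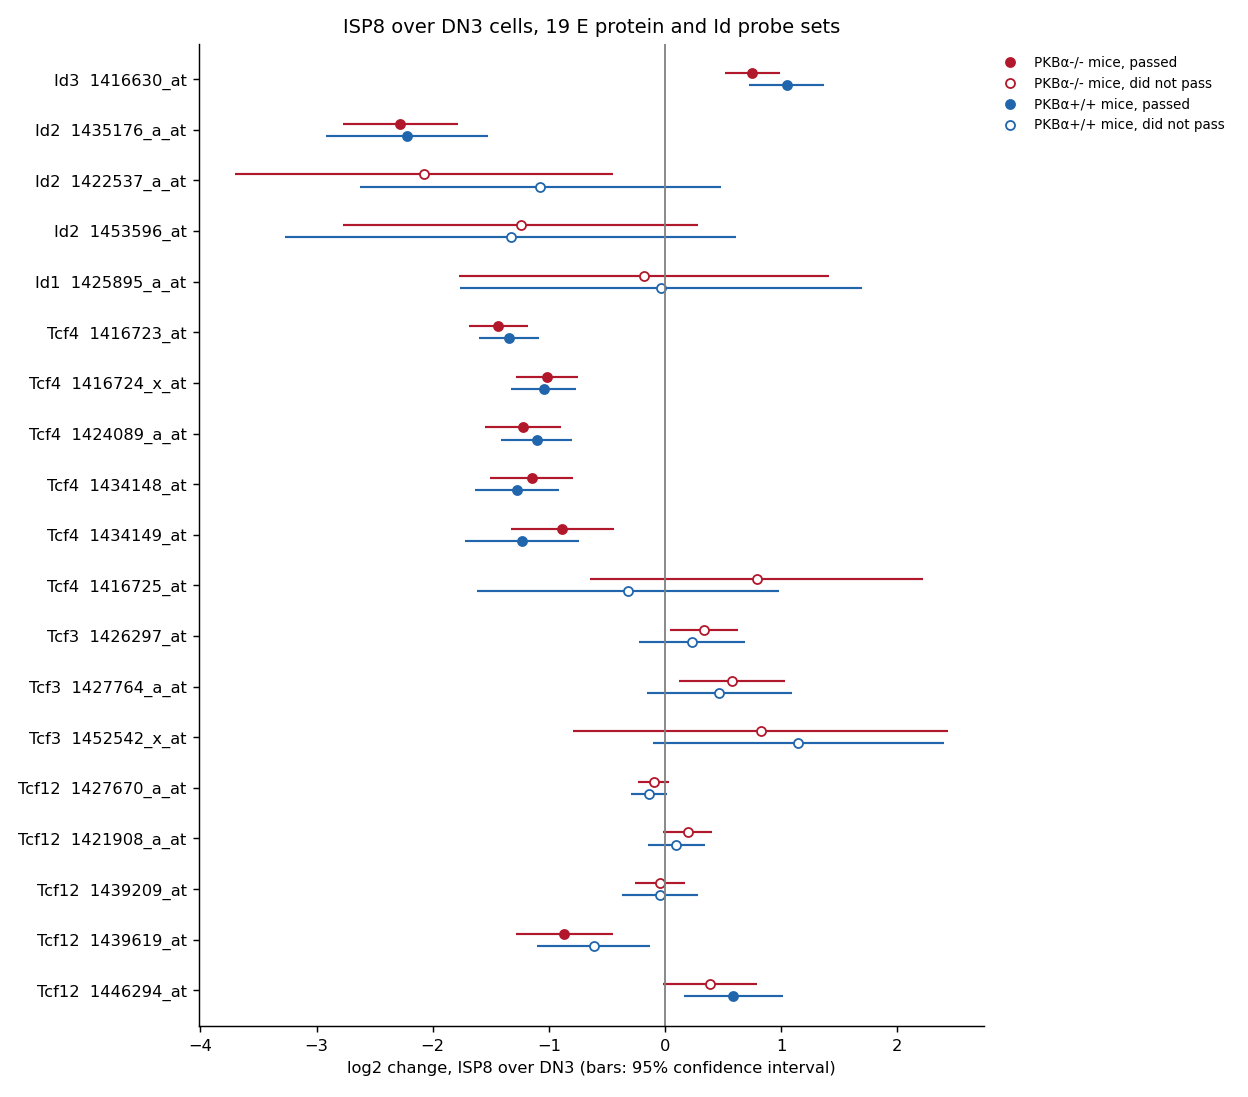
Change from DN3 to ISP8 (x axis, log2, ISP8 over DN3) of the 19 probe sets (y axis) in PKBα-/- mice (red) and PKBα+/+ mice (blue), with 95% confidence intervals (n = 4 mice each). Filled points passed at an adjusted p of 0.05 in that genotype; Id3 lies right of 0, and the brightest Id2 probe set and 5 Tcf4 probe sets lie left of 0 in both genotypes.

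The change with stage was also fitted within each genotype, to see whether it was there without PKBα. In PKBα-/- mice 8 of the 19 probe sets passed, 1 higher and 7 lower (28.1% of all probe sets tested passed, 11.9% higher and 16.2% lower), and in PKBα+/+ mice 8 passed, 2 higher and 6 lower (28.9%, 11.6% higher and 17.3% lower). Id3, the brightest Id2 probe set and 5 probe sets of Tcf4 passed in both genotypes. Some of these calls, with 4 mice each, were lost by the methods' paired test after Benjamini-Hochberg: Id3 (adjusted p = 0.0634) and Id2 (0.113) in PKBα+/+ mice, and Tcf4 1424089_a_at (0.0545) and 1434148_at (0.0654) in PKBα-/- mice. That of Id2 in PKBα+/+ mice was also lost by limma without a trend in the moderation (adjusted p = 0.0505). The eighth call was Tcf12 1439619_at in PKBα-/- mice (-0.87, SE 0.20, adjusted p = 0.00373 by limma), against -0.61 (SE 0.23, adjusted p = 0.0588) in PKBα+/+ mice. In PKBα+/+ mice it was Tcf12 1446294_at (0.59, SE 0.20, adjusted p = 0.0394), against 0.39 (SE 0.19, adjusted p = 0.151) in PKBα-/- mice. The call of 1446294_at was lost without pair 1, 2 or 3 (adjusted p = 0.0968, 0.121 and 0.0688) and without a trend (0.0953), and that of 1439619_at without a trend (0.0697). The methods' paired test after Benjamini-Hochberg lost them too (adjusted p = 0.118 for 1446294_at and 0.119 for 1439619_at). Without pair 2, 1439619_at also passed in PKBα+/+ mice (-0.91, adjusted p = 0.00269). Neither of these changes is shown to differ between genotypes, since the test of that difference gave an adjusted p of 0.970 for the first and 0.971 for the second.

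The direct test of whether the change with stage depended on PKBα passed for 0 of 19 probe sets, and for 0 of all 32831 tested (0%). At an unadjusted p of 0.05 it took none of the 19, against 4.55% of all probe sets. For Id3 the signed genotype effect was lower in ISP8 than in DN3 cells in 4 of 4 pairs. The mean difference was -0.30 on the log2 scale (SE 0.18, 95% confidence interval -0.68 to 0.089, adjusted p = 0.968 by limma). In pair 2 the effect was below 0 in both subsets and nearly equal between them. For the brightest Id2 probe set the difference was -0.056 (-1.02 to 0.90), and for the brightest Tcf4 probe set -0.088 (-0.44 to 0.27).

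Loss of PKBα changed none of the E protein and Id transcripts at the threshold used, in either subset. In ISP8 cells 0 of 18 probe sets tested passed (5 of 34016 in all, 0.0147%), and Id2 1422537_a_at was too low to be tested. In DN3 cells 0 of 19 passed (13 of 33962 in all, 0.0383%). At an unadjusted p of 0.05 limma took 0 in ISP8 cells and 2 in DN3 cells, against 6.08% and 4.83% of all probe sets tested. The selection by the methods' paired test, with at least 1.5-fold in 3 of 4 pairs, also took none of them, against 1.53% of all probe sets in ISP8 cells and 1.35% in DN3 cells.

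Id3 in DN3 cells had the lowest unadjusted p of the 19. PKBα-/- values of 891, 947, 1006 and 931 stood against PKBα+/+ values of 516, 1055, 578 and 654, so that 3 of 4 pairs were higher without PKBα, by 0.79, 0.80 and 0.51 on the log2 scale, while pair 2 had a difference of -0.16. The mean difference was 0.49 (SE 0.15, 95% confidence interval 0.17 to 0.80, unadjusted p = 0.00486, adjusted p = 0.866 by limma). It did not pass after adjustment, and the groups overlapped through the single PKBα+/+ value of pair 2. Without pair 2 it was 0.70 (adjusted p = 0.318). In ISP8 cells the difference was 0.19 (SE 0.12, -0.071 to 0.45, adjusted p = 0.845), higher in 3 of 4 pairs.

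The other probe set taken before adjustment in DN3 cells was Tcf4 1416724_x_at, which gave 1242, 1072, 1287 and 1374 in PKBα-/- cells, against 1306, 1501, 1330 and 1781 in PKBα+/+ cells. It was lower in 4 of 4 pairs, with a mean difference of -0.24 (SE 0.11, unadjusted p = 0.0429, adjusted p = 0.972 by limma), and lower in 4 of 4 pairs in ISP8 cells too, with a mean difference of -0.22 (SE 0.13, adjusted p = 0.836). The brightest Tcf4 probe set differed by -0.063 in DN3 cells (95% confidence interval -0.28 to 0.15) and by -0.15 in ISP8 cells (-0.40 to 0.092).

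For the remaining genes the intervals state how large a difference these 4 pairs leave room for. The brightest Id2 probe set differed by -0.038 in ISP8 cells (-0.62 to 0.54) and by 0.018 in DN3 cells (-0.32 to 0.36). The brightest Tcf3 probe set differed by 0.19 (-0.080 to 0.46) in ISP8 cells and by 0.083 (-0.17 to 0.34) in DN3 cells. The brightest Tcf12 probe set differed by 0.076 (-0.091 to 0.24) in ISP8 cells and by 0.035 (-0.11 to 0.19) in DN3 cells. Id1, at low values, had intervals from -1.16 to 1.25 in ISP8 cells and from -1.03 to 1.42 in DN3 cells. The actin 3′ to 5′ ratio was higher in PKBα-/- cells in 4 of 4 ISP8 pairs, by a mean of 0.24 ± 0.20 (SD), and in 1 of 4 DN3 pairs (-0.17 ± 0.26). That of Gapdh was higher in 2 of 4 ISP8 pairs (0.10 ± 0.38) and in 2 of 4 DN3 pairs (-0.074 ± 0.44).

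**Figure D3:**
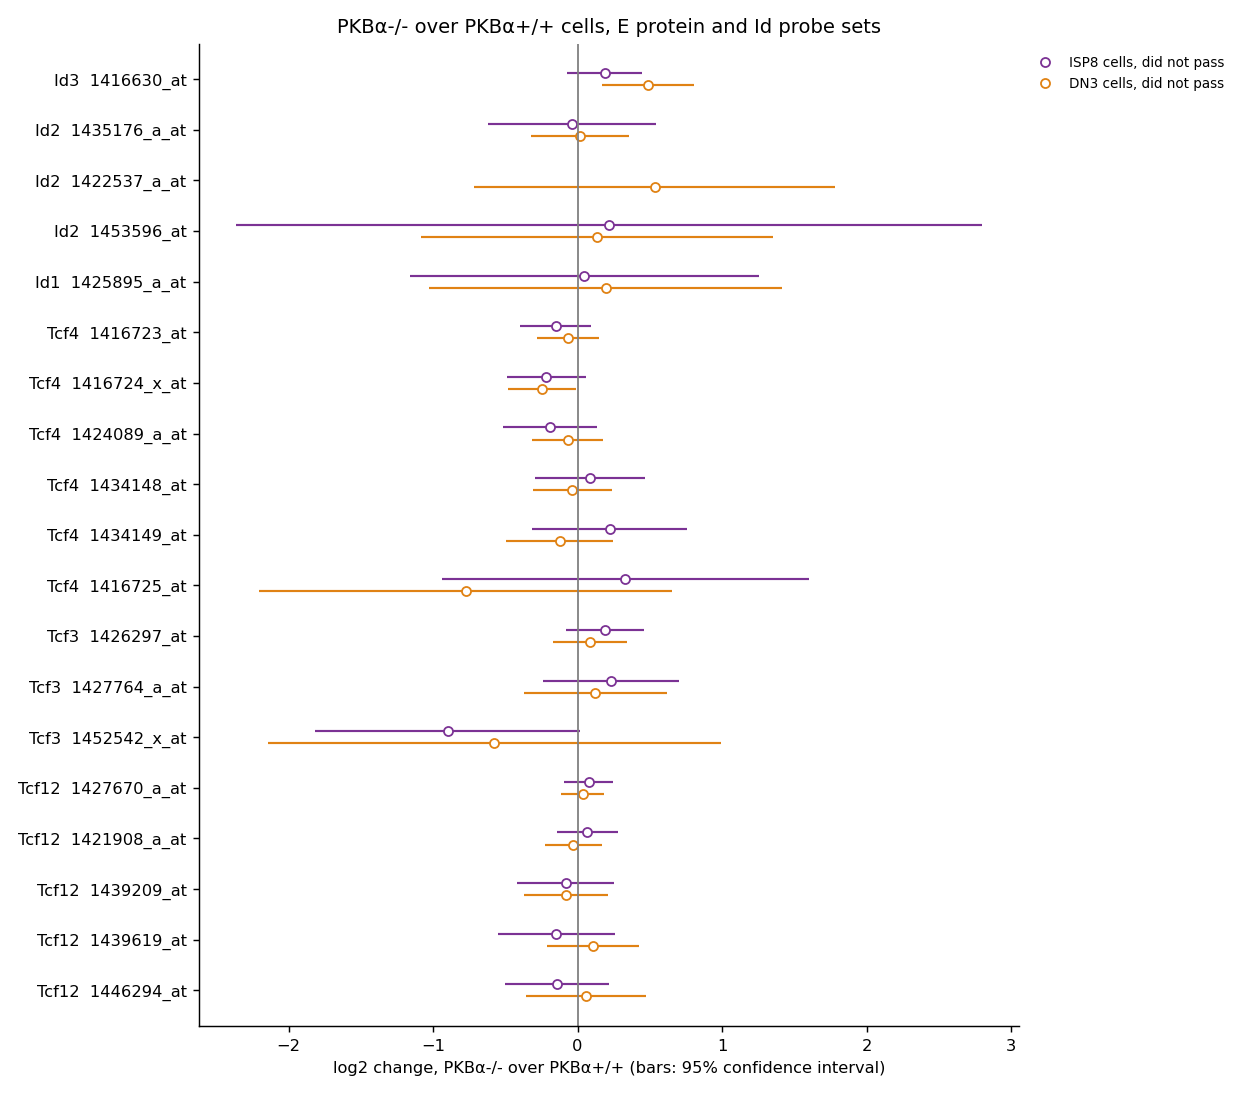
Difference between PKBα-/- and PKBα+/+ cells (x axis, log2, PKBα-/- over PKBα+/+) of the 19 probe sets (y axis) in ISP8 cells (purple) and DN3 cells (orange), with 95% confidence intervals (n = 4 littermate pairs). Open points did not pass at an adjusted p of 0.05, and all points are open; of the DN3 intervals those of Id3 and Tcf4 1416724_x_at do not reach 0, and Id2 1422537_a_at was not tested in ISP8 cells.

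Genes known to be activated by E proteins in thymocytes mostly fell with stage. Of the 9 tested, 8 fell and 1 rose over all 8 mice, against 24.7% lower and 17.5% higher of all probe sets, and the median change was -0.49, against -0.067 over all probe sets. Cdkn1a, a cell cycle inhibitor, averaged 109.8 ± 95.2 in ISP8 cells and 1735 ± 531 in DN3 cells (SD, n = 8), a change of -4.73 (SE 0.39). Hes1, a repressor that Notch also drives, changed by -4.25 (SE 0.12), and Ptcra, the pre-TCR alpha chain, averaged 1652 ± 358 in ISP8 cells and 5474 ± 897 in DN3 cells and changed by -1.74 (SE 0.079). Notch1 (-0.73), Rag2 (-0.49), Rag1 (-0.48), the repressor Gfi1 (-0.45) and Dntt (-0.18), which adds bases at junctions, fell less. Adjusted p values were 0.00795 or less (limma), and the call of Dntt was lost without the pairing (adjusted p = 0.0640) and without pair 4 (adjusted p = 0.0562).

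The member of that list that rose was Cd4, by 2.36 (SE 0.57, adjusted p = 0.00328 by limma), at low values of 20.5 to 166.6 in ISP8 cells, against 4.66 to 50.2 in DN3 cells, both of which were sorted as CD4-negative. Of 4 genes known to be restrained by E proteins in T cell precursors, Cdk6, a G1 kinase, fell, with a change of -1.38 (SE 0.051, adjusted p = 1.26e-11), with 8750 ± 1159 in ISP8 cells and 22600 ± 1976 in DN3 cells. Gata3 (-0.11), Rora (-0.38) and Zbtb16 (-0.10) did not pass, so 1 of 4 fell, against 24.7% of all probe sets. Hes1, Ptcra and Notch1 are also in the list of DN3-stage genes. Of that list 6 of 7 fell and none rose, against 24.7% lower and 17.5% higher of all probe sets. The list was chosen for the DN3 stage and holds Il2ra, the gene of the CD25 used for the sort. Its fall follows from that choice and is no test.

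Among partners and cofactors of E proteins 1 of 11 genes tested rose and 6 fell (17.5% and 24.7% of all probe sets), with a median change of -0.52, against -0.067 over all probe sets. Lmo4, a LIM-only adaptor, rose by 1.49 (SE 0.11, adjusted p = 3.52e-08 by limma), with 768 ± 59.1 in ISP8 cells and 280.4 ± 69.5 in DN3 cells. Lyl1 and Tal1, helix-loop-helix factors that pair with E proteins, fell, with changes of -1.87 (SE 0.40) and -1.80 (SE 0.65), and the LIM-only gene Lmo1 fell too (-2.02, SE 0.49), all at low values. Lyl1 averaged 34.3 ± 18.2 in ISP8 cells and 109 ± 51.1 in DN3 cells. Tal1 averaged 15.02 ± 13.6 in ISP8 cells and 38.5 ± 18.2 in DN3 cells, and Lmo1 18.16 ± 16.01 in ISP8 cells and 58.6 ± 29.6 in DN3 cells. The call of Tal1 was lost without pair 1, 2 or 4 (adjusted p = 0.176, 0.0543 and 0.155). The LIM-domain binding protein Ldb1 (-0.66), the ETO-family corepressor Cbfa2t3 (-1.16) and the acetyltransferase gene Crebbp (-0.52) fell as well. Ep300, Cbfa2t2, Lmo2 and Id4, another Id gene, did not pass.

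Of 10 genes that act upstream of Id genes, 1 rose and 4 fell. Of all probe sets tested, 42.2% passed, 17.5% higher and 24.7% lower. The median change was -0.41. The receptors Tgfbr2 (-1.07, SE 0.082), Tgfbr1 (-0.77, SE 0.056) and Bmpr2 (-0.44, SE 0.094) and the signal transducer Smad5 (-0.55, SE 0.078) fell, and Smad1 rose by 0.22 (SE 0.083, adjusted p = 0.0472 by limma). The call of Bmpr2 was lost without the pairing (adjusted p = 0.0625), and that of Smad1 without pair 2, 3 or 4 (adjusted p = 0.155, 0.230 and 0.0529). Egr1, Egr2 and Egr3, the early growth response genes through which the pre-TCR is known to act on Id3, had changes of -0.31 (SE 0.17), -0.39 (SE 0.23) and -1.01 (SE 0.40) and did not pass (adjusted p = 0.158, 0.199 and 0.0527). Without pair 1 all 3 passed as lower (-0.54, -0.65 and -1.33, adjusted p = 0.0198, 0.0283 and 0.0276). In PKBα-/- mice Egr2 alone of the 3 passed (-0.97, SE 0.27, adjusted p = 0.0145). None of the genes of these 4 lists passed by its brightest probe set in the comparison of genotypes, in ISP8 or in DN3 cells. By its paired test without adjustment, the study lists Cdkn1a as lower in PKBα-/- DN3 cells, by the other probe set of the gene.

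**Figure D4:**
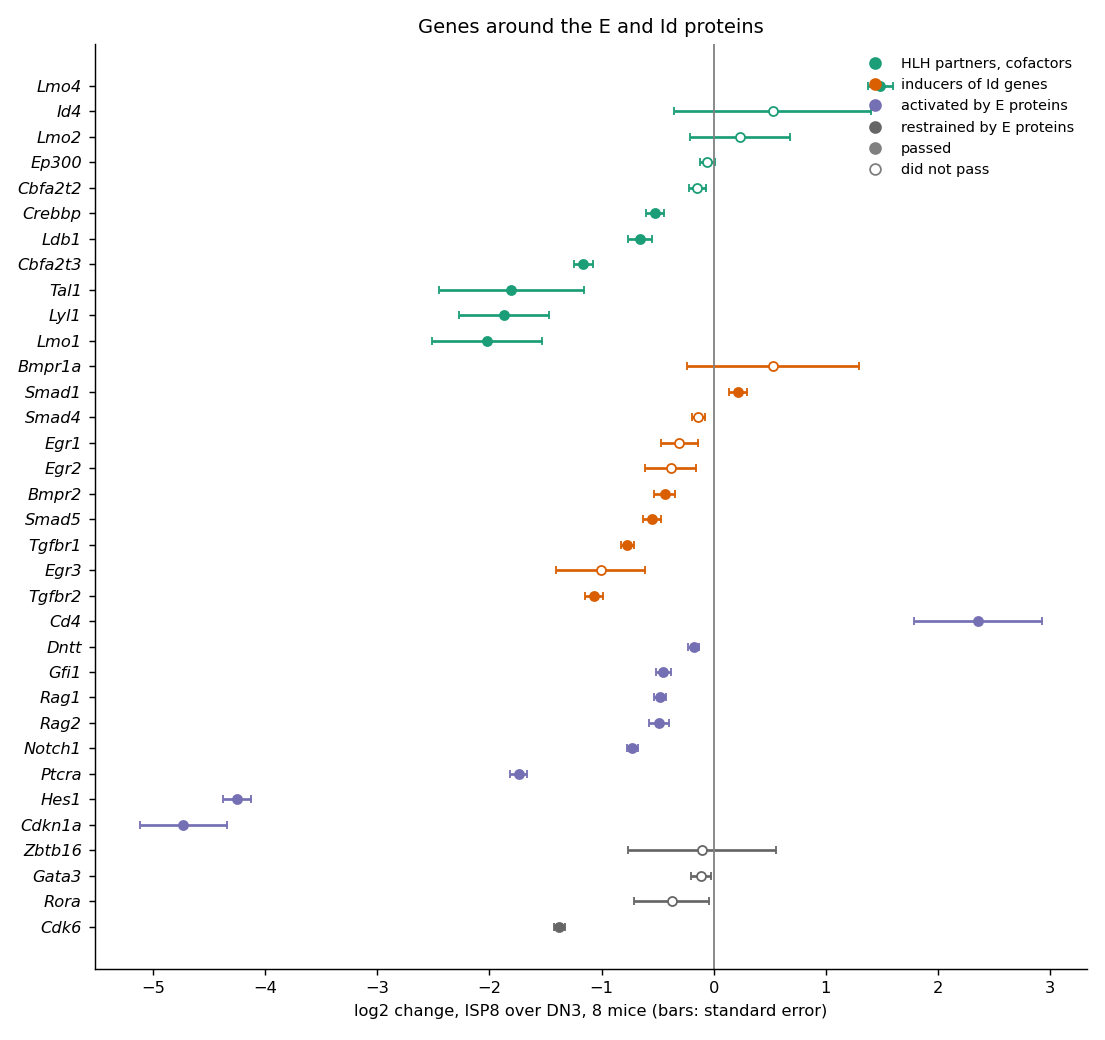
Change from DN3 to ISP8 over 8 mice (x axis, log2, ISP8 over DN3) of genes around the E and Id proteins (y axis), coloured by list and with the standard error. Filled points passed at an adjusted p of 0.05; Cdkn1a and Hes1 fell most, at -4.73 and -4.25, and Cd4 and Lmo4 rose most, by 2.36 and 1.49.

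Some markers of other cells that a sort could hold also changed with stage, as did 42.2% of all probe sets tested (17.5% higher and 24.7% lower). For NK and innate lymphoid cells, in which Id2 is known to be high, 7 of 8 genes were measured and 3 rose and 1 fell, and their summed value was 12517 to 19648 in ISP8 PKBα-/- cells, 16888 to 21548 in ISP8 PKBα+/+ cells, 12645 to 17915 in DN3 PKBα-/- cells and 12977 to 16401 in DN3 PKBα+/+ cells. Most of that sum was Gzma. Klrd1 rose (3.61), Tbx21 rose (2.21), Nkg7 fell (-3.25), and the NK receptor gene Ncr1 lay at 3.78 to 60.1 in ISP8 cells, against 3.25 to 37.5 in DN3 cells. For plasmacytoid dendritic cells, in which Tcf4 is known to be high, 3 of 6 genes fell and 2 rose, and the sums were 2658 to 3533, 2555 to 3806, 5445 to 6914 and 6315 to 7945 in that order of groups. Spib (-3.76), Bst2 (-1.26) and Ly6d (-0.84) fell and Irf8 rose (0.70). Siglech, a defining marker, rose too (1.30, adjusted p = 0.0254 by limma), in 8 of 8 mice. Its values were low, 14.0 to 70.1 in ISP8 cells, against 4.37 to 37.1 in DN3 cells. Most of the DN3 sums was Ly6d and Spib, with means of 3799 and 1512 in DN3 cells. The part of such cells in the changes of Id2 and Tcf4 was not tested.

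The γδ T cell list, for a lineage in which Id3 is known to act, fell with stage by 4 of 4 genes tested, against 24.7% of all probe sets. Its sums were 570.1 to 739.8 in ISP8 PKBα-/- cells, 328 to 705 in ISP8 PKBα+/+ cells, 2576 to 5460 in DN3 PKBα-/- cells and 1351 to 4032 in DN3 PKBα+/+ cells, and Il17a lay at 2.11 to 24.5 in ISP8 cells, against 2.76 to 42.1 in DN3 cells. Its gene Cd163l1, a scavenger receptor gene of γδ T cells, was the only gene of any list whose brightest probe set passed between genotypes. Cd163l1 was higher in PKBα-/- DN3 cells by 1.29 (SE 0.14, adjusted p = 0.000539 by limma). By its paired test without adjustment, the study lists Cd163l1 as higher without PKBα in both subsets. The same test lists Notch3 and Dtx1, of the DN3-stage list, as higher in PKBα-/- ISP8 cells. Of the 6 genes measured for B cells, which need E2A to form, Cd79b fell (-2.16) and Ms4a1 rose (1.88). Cd79a (1.23), Pax5 (0.79), Ebf1 (0.46) and Blnk (-0.18) did not pass. The sums were 304 to 639, 414 to 642, 1169 to 1263 and 1273 to 1374 in the same order of groups. Most of the DN3 sums was Cd79b, with a mean of 1140 in DN3 cells and 259 in ISP8 cells. Pax5 lay at 23.3 to 62.3 in ISP8 cells, against 7.38 to 39.7 in DN3 cells. In the myeloid list 2 of 6 genes tested fell, Lyz2 (-2.85) and Csf1r (-1.23), and 0 rose (24.7% and 17.5% of all probe sets). The sums were 236 to 439, 271 to 2517, 584 to 1189 and 896 to 1720 in the same order of groups, and S100a8 reached 1914 in ISP8 cells. In the list of epithelium, stroma and endothelium 1 of 7 fell, Epcam (-2.97), and 0 rose. Krt8 (0.97), Foxn1 (0.57), Col3a1 (1.30), Krt5 (-0.30), Pecam1 (-1.05) and Cdh5 (-1.10) did not pass. In the list of mature T cells Cd5 rose (1.16) and Il7r fell (-3.11), and neither of the 2 erythroid genes measured passed the filter over all 8 mice. The part of these cells in the results was not tested either.

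For the 4 genes whose brightest probe set changed with stage, the nearest profiles were sought over all 16 arrays, by the root mean square difference of log2 values after each profile was centred on its mean. For Id3 they were Mis18a (0.24), Nfkbia (0.24) and Srsf2 (0.25), for Id2 Ell2 (0.34), Mef2c (0.36) and Cd82 (0.38), and for Tcf4 H13 (0.148), Dnmbp (0.149) and Fut8 (0.1498). For Tcf12 they were Laptm5 (0.090), Exoc2 (0.096) and Cnot6 (0.101). The change with stage, which is part of the likeness, was 0.77 to 0.78 for the 3 genes near Id3, -1.89 to -2.37 for those near Id2 and -1.31 to -1.39 for those near Tcf4. Near Tcf12 it was -0.076 for Laptm5, -0.11 for Exoc2 and 0.039 for Cnot6.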

How the data were processed

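RNA of each sorted subset was, per the methods, amplified in a double-cycle protocol before hybridisation to Affymetrix arrays of the mouse genome. From the probe intensities the authors computed GC-RMA values (background correction, normalization and summary) with Refiner 3.1 (Genedata). The deposited intensities are linear, and their log2 was taken with no constant added. The presence calls were not used. Probe sets entered a test if at least 1 array of a pair or mouse exceeded 20 in at least 3 of 4 pairs or mice (6 of 8 for all mice). With a pair left out, the filter was applied again to the remaining pairs or mice, at the same share rounded up. Some probe sets were therefore tested in only some of those fits. The platform annotation gave 34958 probe sets 1 symbol, 932 several and 9211 none, and only the first kind was named.

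Genotypes were compared within littermate pairs and stages within mice, using limma 3.58.1 (R 4.3.3) with pair or mouse as the blocking term and trended moderation of the variance. P values are two-sided and adjusted by Benjamini-Hochberg over every probe set in the fit, at a threshold of 0.05. The pairing comes from the labels, which name each array's littermate. Deviations from the group means correlated at 0.0551 to 0.126 between littermates and at -0.0761 to 0.0440 between other mice in DN3 cells, and at 0.00515 to 0.0365 and -0.0675 to 0.0486 in ISP8 cells.

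A gene of another list was represented by its probe set with the highest mean. The members, the lists and the rule for named genes (all probe sets of the 6 genes, the genes of each list that passed, and the 3 nearest profiles of each gene whose brightest probe set changed with stage) were chosen with earlier results of these data known. The list of ISP8 and double positive stage genes held Cd8a, Cd8b1 and Cd4, which rose, and Cd24a, which fell (-0.31). Gene positions and promoter windows came from RefSeq (GRCm38.p6), matched by gene identifier. The number of mice limits the precision. Plots used matplotlib 3.10.9 (Python 3.11.15).

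Alternatives were no filter, a filter at 100, 20 added before log2, quantile normalization, no replicate block, robust moderation, moderation without a trend, 1 fit of all 16 arrays, the methods' paired test (p up to 0.05 and at least 1.5-fold in 3 of 4 pairs) and leaving out each pair.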

Additional observations from a re-analysis of the deposited data

Results flagged for a closer look

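In 3 of 76 groups of 4 arrays 1 array stood apart from the others, where chance gives about 5% of groups. Tcf3 1427764_a_at was 391 on the ISP8 PKBα-/- array of pair 3, against 184 to 205 on the others. Tcf12 1439209_at was 1403 on the ISP8 PKBα-/- array of pair 4, against 1784 to 1860. Tcf12 1439619_at was 259.6 on the DN3 PKBα-/- array of pair 2, against 511 to 519.6, and the PKBα+/+ littermate in pair 2 also had the lowest DN3 value of its group, 231.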

How the results depend on the processing

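Id3, the brightest Id2 probe set and 5 probe sets of Tcf4 kept their direction and their call over all 8 mice under every alternative run, but not all of their calls within a genotype. The count of passed probe sets over all mice was 9 to 13 under the alternatives, against 12, and 9 to 12 when pairs were left out in turn. Within PKBα-/- mice it was 5 to 12 (8 to 9 with pairs left out) and within PKBα+/+ mice 5 to 9 (7 to 9), against 8 each. The value of 5 in both came from the methods' paired test after Benjamini-Hochberg. Among all probe sets 6277 to 14243 passed over all mice, against 13853. In PKBα-/- mice 3036 to 10041 passed, against 9556, and in PKBα+/+ mice 3103 to 10449, against 9968. The lowest of these counts within each genotype came from the same test that gave the value of 5. Without the replicate block the counts of the 19 were 9 over all mice, 9 in PKBα-/- mice and 8 in PKBα+/+ mice. Those of all probe sets were then 12977, 8559 and 8383. The genotype comparisons and the difference between subsets gave 0 under all alternatives, the fit without the replicate block included. Over all probe sets the genotype count ran from 0 to 458 in DN3 cells (11 to 45 with pairs left out) and from 0 to 521 in ISP8 cells (1 to 11), and the highest was the methods' paired test without adjustment. In ISP8 cells 1 fit of all 16 arrays gave 14 and in DN3 cells 1. Quantile normalization moved the median change with stage of all probe sets to 0.035, against -0.067, and the share of higher among passed to 51.3%, against 41.4%. In PKBα-/- mice the share was 50.3%, against 42.5%, and in PKBα+/+ mice 50.0%, against 40.2%, with medians of 0.035 and -0.087. Tcf12 1427670_a_at lost its call without a filter (adjusted p = 0.0707), without the replicate block (0.130) and without a trend (0.183), and Tcf3 1427764_a_at without the replicate block (0.0798) and without a trend (0.0643). The cause was not tested.

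Only changes that did not pass turned their sign. With pairs left out, changes with stage ranged from -0.78 to 0.71 for Id1, from -0.23 to 0.42 for Tcf4 1416725_at and from -0.14 to 0.050 for Tcf12 1439209_at over all mice, from -1.01 to 0.52 for Id1 in PKBα-/- mice, and from -0.83 to 0.90 for Id1 and from -0.21 to 0.14 for Tcf12 1439209_at in PKBα+/+ mice. Genotype effects in DN3 cells ranged from -0.11 to 0.19 for Id2 1435176_a_at, -0.31 to 0.86 for 1422537_a_at and -0.24 to 0.54 for 1453596_at, from -0.19 to 0.66 for Id1, from -0.16 to 0.043 for Tcf4 1416723_at, -0.15 to 0.0050 for 1424089_a_at and -0.12 to 0.054 for 1434148_at, and from -0.018 to 0.11 for Tcf12 1427670_a_at, -0.27 to 0.12 for 1439209_at and -0.037 to 0.23 for 1446294_at. In ISP8 cells they ranged from -0.21 to 0.083 for Id2 1435176_a_at, from -0.049 to 0.22 for Tcf4 1434148_at, and from -0.018 to 0.12 for Tcf12 1421908_a_at and -0.23 to 0.17 for 1439209_at, and the 1 value for Id1 was -0.17. Differences between subsets ranged from -0.39 to 0.11 for Id2 1435176_a_at, -0.997 to 1.09 for 1453596_at, -0.47 to 0.21 for Id1, -0.19 to 0.071 for Tcf4 1416723_at, -0.055 to 0.10 for 1416724_x_at, -0.12 to 0.30 for Tcf3 1426297_at, -0.082 to 0.37 for 1427764_a_at, -1.34 to 0.11 for 1452542_x_at and -0.19 to 0.14 for Tcf12 1439209_at. Quantile normalization gave 0.067 for Id1 with stage in PKBα+/+ mice. With 20 added before log2, the genotype effect in ISP8 cells was -0.17 for Id2 1453596_at and -0.015 for Id1, and the difference between subsets was -0.23 for Id2 1453596_at.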
